A study of Drosophila melanogaster with 2 samples.

Results

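Weak but repeatedly listed promoter peaks of the transcription factor Max are the subject: 3446 of the 30000 pooled ChIP-seq peaks that lay at the start of a protein-coding gene, were listed in both replicates, and yet fell below the authors' threshold on the irreproducible discovery rate (IDR). They stood at the promoters of 2921 genes. The peaks were chosen by their measured values, namely their absence from the IDR list of 4712 peaks, a summit within 500 bp of an annotated start, and an overlap of at least 1 bp with a peak of each replicate's own list. Genes that also had an IDR summit within 500 bp of a start were left out, as was chromosome 4. Scores, ranks and presence in the replicates are therefore given below as description and are not themselves tested. Tests are of the sequence at the summit and of its place within the promoter or genome, between groups of peaks formed by the IDR threshold, by score or by presence in the replicates.

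The material was whole Drosophila melanogaster embryos, male and female pooled, collected at 0 to 24 h of age from a transgenic strain, Max-GFP, that stably makes Max with GFP fused to its C terminus. The antibody recognised GFP, and chromatin was sonicated to 200 to 800 bp. There was 1 group of 2 biological replicates, numbered 2 and 3, so no conditions could be compared, and the peaks of a whole embryo do not say which cells carried them. Read counts are not in the peak lists, so the depth is unknown, and the control was not analysed here. Tests below compare groups of sites. Sites are not replicates, so variation among embryos is not in the p-values. The tests also treat sites as independent, although 1048 genes had several weak peaks and neighbouring peaks can overlap, and no correction was made for this.

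Max belongs to the bHLH leucine zipper family and binds DNA as a dimer, with Myc as the activating partner and with Mnt as the repressing one. Myc and Max dimers are known for their preference for the palindromic E-box and for driving growth genes such as those for ribosomal proteins and ribosome assembly. Many broadly used fly promoters carry other short elements instead, among them the DRE, bound by the factor DREF, and the Ohler 1 element, bound by M1BP.

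Of 3446 weak summits, 195 (5.66%) had the DRE or Ohler 1 within 50 bp, and 1.45% had the canonical E-box. The following windows of 101 bases centred on the summit are therefore not typical of weak peaks. They were printed because they carry the DRE, Ohler 1 or the canonical E-box close below the threshold, or none of these. They are given 5′ to 3′ on the strand of the nearest gene, from the RefSeq Release 6 sequence on dm6 coordinates, with the DRE (TATCGATA), Ohler 1 (GGTCACAC) or the canonical E-box (CACGTG) in capitals. The first pair holds the DRE, the second pair Ohler 1 and the next 4 the E-box, while the window of Acat2 and Rac1 holds none of the 3. The last, nxf4, is an IDR peak just above the threshold, and it too holds none.
Ccdc114 and Fas1, chr3R:16625137-16625237, plus strand: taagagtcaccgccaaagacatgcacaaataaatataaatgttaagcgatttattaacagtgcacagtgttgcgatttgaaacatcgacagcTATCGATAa
Prx3, chr3R:17546484-17546584, minus strand: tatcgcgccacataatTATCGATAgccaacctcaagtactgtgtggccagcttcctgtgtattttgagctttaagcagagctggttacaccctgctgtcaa
BCL7-like and Zdhhc8, chrX:9356510-9356610, plus strand: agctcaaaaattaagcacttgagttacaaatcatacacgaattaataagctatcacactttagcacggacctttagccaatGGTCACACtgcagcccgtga
Tcs4, chrX:19701720-19701820, minus strand: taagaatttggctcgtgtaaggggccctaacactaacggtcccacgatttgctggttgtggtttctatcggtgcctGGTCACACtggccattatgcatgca
Tsp, chr2L:6709259-6709359, minus strand: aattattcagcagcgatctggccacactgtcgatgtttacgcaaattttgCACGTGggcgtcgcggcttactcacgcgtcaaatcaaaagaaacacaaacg
CG14860, chr3R:14894488-14894588, plus strand: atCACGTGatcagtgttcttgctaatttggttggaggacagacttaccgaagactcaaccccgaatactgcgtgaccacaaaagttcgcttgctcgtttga
CG6184, chr3R:19656573-19656673, minus strand: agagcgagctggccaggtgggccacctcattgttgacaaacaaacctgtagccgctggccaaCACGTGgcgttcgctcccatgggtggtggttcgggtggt
mRpL16 and trr, chrX:1890085-1890185, plus strand: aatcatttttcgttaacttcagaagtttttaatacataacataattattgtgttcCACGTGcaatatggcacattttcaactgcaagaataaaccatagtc
Acat2 and Rac1, chr3L:1302744-1302844, minus strand: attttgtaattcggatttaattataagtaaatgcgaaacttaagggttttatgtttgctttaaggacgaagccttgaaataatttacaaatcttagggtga
nxf4, chr3R:7346613-7346713, plus strand: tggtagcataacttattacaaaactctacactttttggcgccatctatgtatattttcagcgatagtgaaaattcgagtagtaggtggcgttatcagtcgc

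The threshold cut through a continuous run of scores. Just below it lay the weak peaks of CG14220 and of Ccdc114 and Fas1, each with a pooled score of 87.0, and those of stops, CG45218, csw and the shared start of Acat2 and Rac1, each with 86.8. Just above it lay the IDR peaks of nxf4, with 87.2, Letm1, with 87.1, and Pkn, with 87.0. The CG45218 summit was nearest the start of Tm1, 49 bp upstream of it, a gene left out because it also had an IDR summit. Fas1 encodes a fasciclin cell adhesion protein, csw a phosphatase of receptor tyrosine kinase signalling and Rac1 a small GTPase of the actin cytoskeleton. The peaks of CG7600 and Ube3a, a ubiquitin ligase, and of PH4alphaEFB, a prolyl hydroxylase that acts on collagen, followed with 86.7 each. In the replicates, each on the scale of its own list, the peak of CG14220 scored 68.0 in replicate 2 and 13.5 in replicate 3, that of Ccdc114 and Fas1 52.7 and 29.1, and that of Acat2 and Rac1 40.8 and 52.3. Peaks with nearly the same pooled score thus drew on the replicates unequally. At the other end, the peaks of CG3368, L and the pair Nprl2 and Polr3I scored 21.9.

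Over all 3446 weak promoter peaks the authors' pooled score had a median of 47.5 and quartiles of 35.2 and 63.8, against a median of 142.9 for the 2837 IDR promoter peaks. The −log10 q-value had a median of 1.1 at weak peaks and 3.4 at IDR promoter peaks. Median ranks of the weak peaks were 10660.5 in the pooled list, 9318 in replicate 2 and 10303.5 in replicate 3. The summits of the overlapping replicate peaks lay a median of 44 bp away in replicate 2 and 69 bp in replicate 3, against 11 and 27 bp for IDR promoter peaks. The summit was the midpoint of the interval in 99.9% of weak peaks and in 74.1% of IDR promoter peaks, and what this does to the placing of a summit was not tested.

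**Figure D1:**
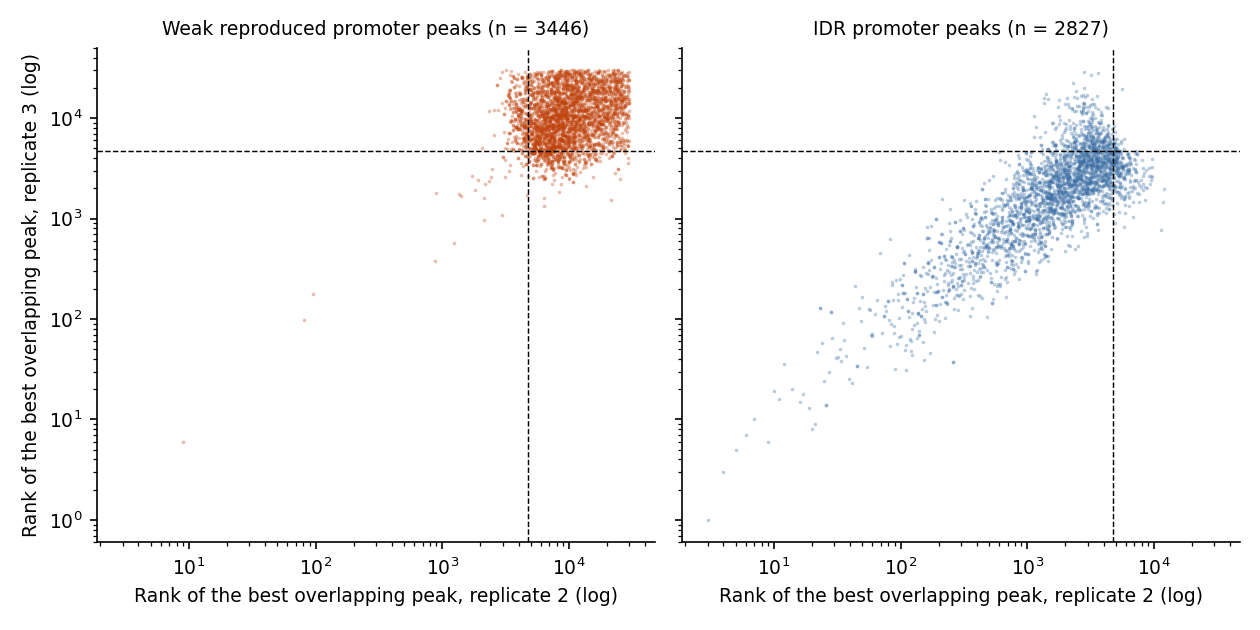
Each point is a promoter peak of the pooled list, placed by the rank of the best overlapping peak in replicate 2 (horizontal, log axis) and in replicate 3 (vertical, log axis), with weak peaks left and IDR peaks that had a match in both replicates right. Dashed lines mark rank 4712, the length of the IDR list, and 39 weak peaks lay within it in both replicates.

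Single weak peaks differed in which replicate carried them. Within the length of the IDR list, rank 4712, lay 311 weak peaks (9.0%) in replicate 2 and 364 (10.6%) in replicate 3, and 39 (1.1%) in both. Of IDR promoter peaks with a match, 91.2% lay within it in replicate 2 and 86.7% in replicate 3. Leaving out IDR peaks thus helps to set the low counts of weak peaks, also that in both replicates. Of the 39 weak peaks within it in both, 28 had an IDR summit within 1000 bp. Over all 3446 weak peaks, the matching replicate peak was also the match of an IDR peak in 37 cases for replicate 2 and in 40 for replicate 3. Far more often, in 1641 cases for replicate 2 and 1605 for replicate 3, it also overlapped another peak of the pooled list. A replicate peak is thus not always particular to 1 weak peak. Stat92E, the transcription factor of the JAK-STAT pathway, was among the 39, with a rank of 4147 in replicate 2 and 3535 in replicate 3. So were Prx2, a peroxiredoxin gene, with ranks of 4499 and 4163, and the shared start region of CG43954, Dab and Lasp, with ranks of 3941 and 3963. Both peaks of CG5555 and myd overlapped a single peak of each replicate, ranked 4233 and 4513, so they count as 1 replicate peak.

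The largest gaps ran in both directions. TfIIEbeta, a subunit of a general transcription factor, ranked 3171 in replicate 2 and 29755 in replicate 3, near the end of a list that holds 30000 peaks. The RNA-binding protein gene sm ranked 2988 and 28518, and hth, a homeobox gene, 3512 and 29169, in the same order of replicates. In the other direction, fwe ranked 29486 in replicate 2 and 3531 in replicate 3, sun 29965 and 5939, and Xrp1, a stress-response transcription factor, 29045 and 4023. For such genes the overlap of 1 bp is met by a peak at the very bottom of a list.

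Among the 5293 sub-threshold peaks at promoters of genes without an IDR summit, 3446 were in both replicate lists, which is 65.1% of those eligible. The 1847 others, called unreproduced peaks here, were listed in replicate 2 alone in 1205 cases, in replicate 3 alone in 492 and in neither in 150. The share in both lists fell along the pooled list, and it was 90.6% for ranks 4713 to 10000, 72.3% for ranks 10001 to 15000 and 54.7% for ranks 15001 to 20000. Of all 7043 sub-threshold peaks at promoters, whether or not the gene had an IDR summit, 68.8% were in both lists, against 47.3% of the 17727 outside promoters. These shares follow from values that chose the peaks and are not tested.

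Weak peaks straddled the start of the gene, whereas IDR peaks lay mostly ahead of it. The summit was upstream of the nearest start in 1930 of 3446 weak peaks (56.0%) and in 2200 of 2837 IDR promoter peaks (77.5%), an odds ratio of 0.369 (adjusted p = 1.86e-72, two-sided Fisher exact test, adjusted by Benjamini-Hochberg over 5 properties). Within 100 bp of a start lay 38.9% of weak and 48.6% of IDR promoter summits (odds ratio 0.674, adjusted p = 2.16e-14 by the same exact test). That difference was not past the threshold of 0.05 for the weak peaks above their median score (odds ratio 0.945, adjusted p = 0.449, exact test). Weak summits were also closer than unreproduced ones, with 38.9% against 30.3% within 100 bp (odds ratio 1.47, adjusted p = 1.62e-09, exact test). The median signed position was -24 bp for weak peaks and -80 bp for IDR promoter peaks, where negative is upstream. Starts of at least 2 genes were near 22.7% of weak and 43.1% of IDR promoter summits. The part of that in the differences in position was not tested. Distance to a start was also part of the choice of peaks. All groups were held to the same 500 bp, and positions were compared only within that limit. Genes with an IDR summit were left out of the weak and unreproduced groups alone. What this does to the compared positions was not tested.

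**Figure D2:**
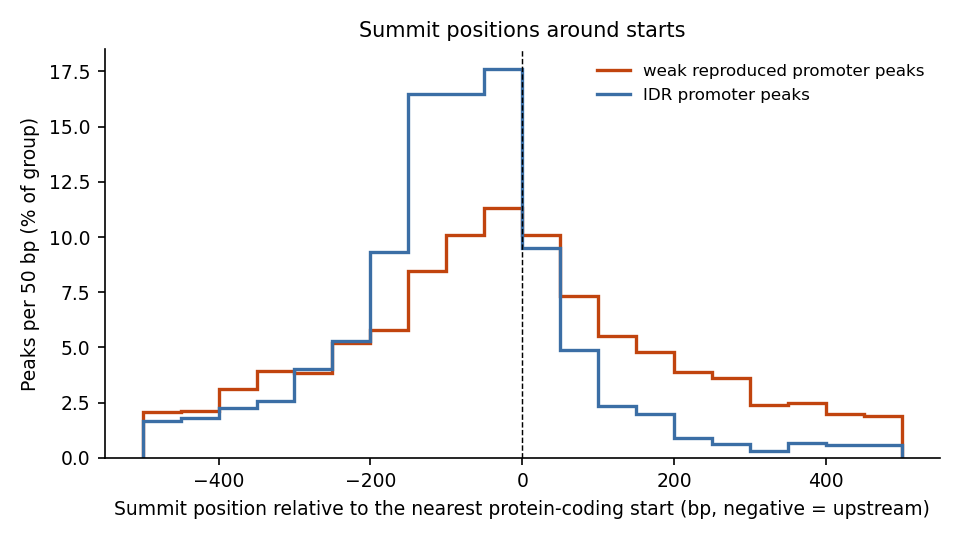
The lines give the share of summits (vertical, % of each group per 50 bp) by position relative to the nearest protein-coding start (horizontal, bp, negative upstream) for weak and for IDR promoter peaks. Of weak summits 14.2% lay 100 to 250 bp downstream, against 5.3% of IDR promoter summits.

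The DNA under weak summits was richer in G and C. GC content within 50 bp averaged 41.3% ± 11.2 at weak summits and 35.8% ± 10.5 at IDR promoter summits (SD over 3446 and 2837 sites). It was under 40% at 46.6% of weak and 65.5% of IDR promoter summits (odds ratio 0.46, adjusted p = 1.08e-50, exact test). The dip at the summit was shallow for weak peaks, whose flanks averaged 43.5% and 44.0%, and deeper for IDR promoter peaks, whose flanks averaged 46.3% and 45.9%. Weak and unreproduced summits did not differ past the threshold, with 46.6% and 45.9% under 40% (adjusted p = 0.753, exact test).

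A larger share of weak than of other promoter peaks lay on X. On X lay 712 of 3446 weak peaks (20.7%), 283 of 1847 unreproduced peaks (15.3%) and 435 of 2837 IDR promoter peaks (15.3%). The odds ratio was 1.44 against either group, with an adjusted p of 4.67e-06 against unreproduced and 6.17e-08 against IDR promoter peaks by the exact test. Counted by gene, 605 of the 1665 X-linked genes without an IDR summit had a weak peak (36.3%), as did 2316 of 8601 on the other arms (26.9%). Starts of small RNA genes were near 25 weak and 25 IDR promoter summits (0.725% and 0.881%; adjusted p = 0.569, exact test).

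The canonical E-box, the site Max dimers are known to prefer, did not pass as more frequent at weak summits than in both flanks. Within 50 bp of the summit, on either strand, it was found at 50 of 3446 weak peaks (1.45%, 95% Wilson interval 1.10 to 1.91), against 1.19% in the mean of the flanking windows of equal width centred 500 bp away (ratio 1.22). The flanks differed, with 28 matches (0.813%) on the side of lower coordinates and 54 (1.57%) on the other, and the summits were higher than the first (unadjusted p = 0.0169, exact McNemar test) but not than the second (p = 0.767). Since a motif had to exceed or fall short of both flanks, with the larger p kept and adjusted over 12 motifs, its adjusted p was 1 by the exact test. At IDR promoter summits it was found at 126 of 2837 (4.44%, 3.74 to 5.26), and there it passed against the flanks (ratio 3.36, adjusted p = 4.83e-12, exact McNemar test). The odds ratio of weak against IDR promoter peaks was 0.317 (adjusted p = 5.07e-12, Fisher exact test adjusted over 12 motifs). Unreproduced peaks carried it at 25 of 1847 summits (1.35%), which did not differ past the threshold from weak peaks (odds ratio 1.07, adjusted p = 0.882, exact test). A palindrome reads the same on both strands, so each match was counted once, and matches of different motifs may overlap.

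The 8 highest-scoring weak peaks with an E-box included CG32772, with 84.6, Tsp, the gene of the matrix protein thrombospondin, with 84.4, and CCT2, a subunit of the cytosolic chaperonin, also with 84.4. They further included CG14860, with 84.3, eEF1delta, a translation elongation factor, with 83.5, and CG6184, with 81.8. The E-box peak of PhKgamma, a phosphorylase kinase subunit, scored 81.4, and its E-box overlaps an Ohler 1 match. The last was Ntan1, with 80.8. In replicate 2 these peaks scored 51.4 to 64.6 and in replicate 3 16.6 to 34.5, each on the scale of its own list. Among the 8, CG32772 and CCT2 ranked 5518 and 4402 in replicate 2 and 5992 and 6371 in replicate 3, while eEF1delta ranked 4202 and only 15609.

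The DRE and Ohler 1 were concentrated at weak summits, and at IDR promoter summits too. The DRE was within 50 bp of 106 weak summits (3.08%, 2.55 to 3.71), against 0.827% in the flanks (ratio 3.72, adjusted p = 1.23e-09, exact McNemar test). Ohler 1 was at 96 weak summits (2.79%, 2.29 to 3.39), against 0.406% in the flanks (ratio 6.86, adjusted p = 5.25e-14, exact McNemar test). At IDR promoter summits both ratios were higher, 12.7 for the DRE (adjusted p = 1.58e-31) and 7.62 for Ohler 1 (adjusted p = 1.06e-16, exact McNemar test). The difference in ratio was not tested. Of the 12 motifs, 6 passed against the flanks at weak summits, and 4 to 9 did under the alternatives. The other 4 were the core promoter motifs Ohler 7 (CATCNCTA, ratio 2.42), Ohler 6 (GGTATTTT, 2.03), the TATA core (TATAAA, 1.35) and the initiator core (TCAGT, 1.21), with adjusted p from 0.000287 to 0.00352 by the exact test. With replicate summits within 100 bp, Ohler 6 (adjusted p = 0.128) and the initiator (adjusted p = 0.266, exact test) did not pass. The canonical E-box and the other motifs searched did not pass. These were the E-box variant CACGCG, the variant spelled CATGTG, the variant of tissue-specific bHLH factors spelled CAGCTG, the GAGA element (GAGAGAG) and the Zelda site (CAGGTAG).

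The leading weak peaks with these elements lay directly below the threshold. With the DRE these were CG14220 and the pair Ccdc114 and Fas1, given above, and Prx3, a mitochondrial peroxiredoxin gene, with a pooled score of 86.6, 60.2 in replicate 2 and 25.6 in replicate 3. With Ohler 1 they were the pair BCL7-like and Zdhhc8, with a pooled score of 86.5 and 45.7 and 45.8 in replicates 2 and 3, then Tcs4, with 86.4 pooled and 70.0 and 18.8, and CG30414, with 86.3 pooled and 50.4 and 36.4.

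The DRE was less frequent at weak than at IDR promoter summits, with 106 of 3446 (3.08%) against 159 of 2837 (5.60%; odds ratio 0.535, adjusted p = 2.29e-06, exact test). For the weak peaks above their median score that difference no longer passed (odds ratio 0.799, adjusted p = 0.155, exact test), nor did it at summits under 40% GC (odds ratio 0.788, adjusted p = 0.535), while at those of 40% or more the odds ratio was 0.325 (adjusted p = 1.91e-10). Ohler 1 was at 2.79% of weak and 3.49% of IDR promoter summits, a difference that did not pass (odds ratio 0.793, adjusted p = 0.214, exact test) but did without replicate 3 (odds ratio 0.695, adjusted p = 0.0236). Its direction depended on base composition, with an odds ratio of 1.32 (adjusted p = 0.535) at summits under 40% GC and of 0.460 (adjusted p = 5.75e-05) at the others by the exact test, a split chosen after the data were seen. Ohler 6, at 1.97% of both groups over all summits, passed in opposite directions in that split, with 2.86% of weak and 1.61% of IDR promoter summits under 40% GC (odds ratio 1.8, adjusted p = 0.0428) and 1.2% and 2.66% at the others (odds ratio 0.443, adjusted p = 0.0136, exact test). Ohler 7 (odds ratio 0.424, adjusted p = 1.94e-06) and the TATA core (odds ratio 0.620, adjusted p = 3.83e-12, exact test) were less frequent at weak than at IDR promoter summits. The GAGA element was the only one of the 5 that passed to be more frequent at weak summits, with 2.21% of weak against 1.3% of IDR promoter summits (odds ratio 1.71, adjusted p = 0.018, exact test), and it no longer passed without replicate 3 (odds ratio 1.53, adjusted p = 0.0696) and lay the other way at summits under 40% GC (odds ratio 0.8, adjusted p = 0.672). The TATA difference did not pass at summits of 40% GC or more (odds ratio 0.883, adjusted p = 0.624, exact test).

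The lower share of E-boxes at weak peaks held in both classes of base composition. At summits of 40% GC or more, 2.07% of 1839 weak peaks and 9.30% of 978 IDR promoter peaks had it (odds ratio 0.206, adjusted p = 3.2e-16, exact test). At summits under 40%, the shares were 0.747% of 1607 weak and 1.88% of 1859 IDR promoter peaks (odds ratio 0.392, adjusted p = 0.0279, exact test). Restricting weak peaks to those with both replicate summits within 100 bp left 1802 of them and an odds ratio of 0.340 (adjusted p = 1.69e-07, exact test). E-box and DRE stood together at 1 weak summit and at 20 IDR promoter summits.

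**Figure D3:**
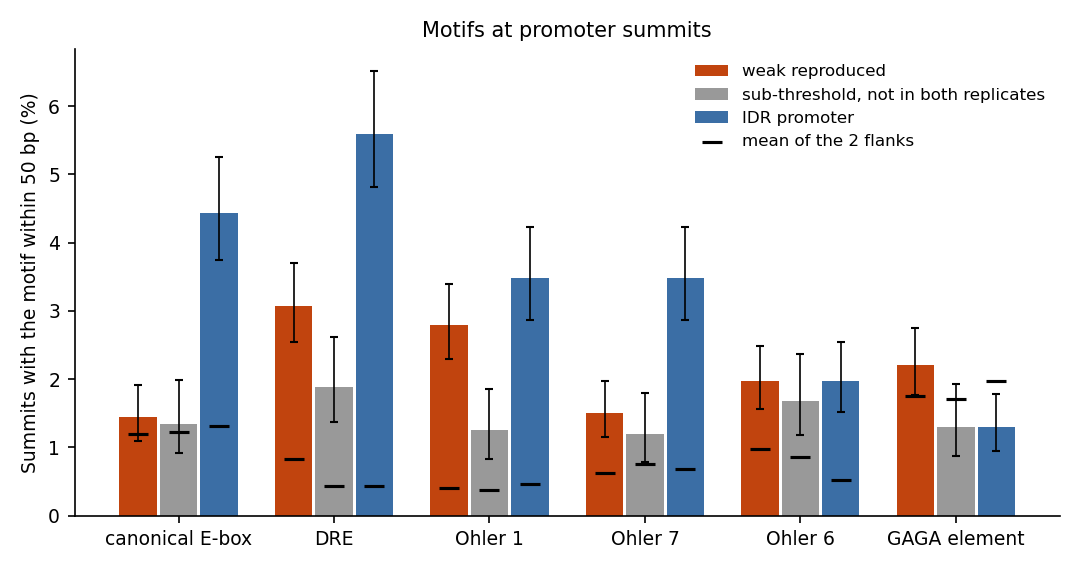
Bars give the share of summits with each motif within 50 bp (vertical, %) for weak peaks (n = 3446), unreproduced sub-threshold peaks (n = 1847) and IDR promoter peaks (n = 2837), with 95% Wilson intervals, and black dashes give the mean of both flanking windows. The E-box bar of weak peaks, 1.45%, sits near its dash at 1.19%, while DRE and Ohler 1 stand above theirs.

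Ohler 1 also set weak peaks apart from unreproduced ones. It was at 96 of 3446 weak summits (2.79%) and at 23 of 1847 unreproduced summits (1.25%; odds ratio 2.27, adjusted p = 0.00241, exact test), the only 1 of 12 motifs to pass. Without replicate 2, the odds ratio was 1.96 with an adjusted p of 0.0912 by the exact test, with starts within 250 bp it was 1.80 with an adjusted p of 0.103, and with the 15000 highest replicate peaks 1.56 with an adjusted p of 0.0817. The DRE was at 3.08% of weak and 1.89% of unreproduced summits and did not pass (odds ratio 1.64, adjusted p = 0.0714), but it did without replicate 3 (odds ratio 2.69, adjusted p = 0.0321, exact test). Both calls depended on the settings. The DRE passed in 9 of 13 alternatives, for example with replicate summits within 100 bp (odds ratio 1.78, adjusted p = 0.00494, exact test) and for the weak peaks above their median score (odds ratio 2.45, adjusted p = 4.96e-05). Ohler 1 passed in 10 of 13. Weak and unreproduced peaks also differed in pooled score, with medians of 47.5 and 29.7, and the part of that in these differences was not tested. Against their own flanks, unreproduced summits carried the DRE at 1.89% against 0.433% (ratio 4.38, adjusted p = 0.000503, exact McNemar test), while for Ohler 1, at 1.25% against 0.379%, the test did not pass (adjusted p = 0.0645).

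Both elements were more frequent at higher-scoring weak peaks, and for the E-box no such difference passed. The weak peaks were put into 5 groups of equal size by pooled score. From the lowest to the highest group the DRE was at 1.02, 1.6, 2.9, 4.79 and 5.07% of summits, and the odds ratio of the highest against the lowest group was 5.21 (adjusted p = 0.000136, Fisher exact test adjusted over 12 motifs). Ohler 1 was at 1.02, 2.61, 2.47, 3.05 and 4.78% (odds ratio 4.89, adjusted p = 0.000198, exact test). The E-box was at 1.45, 1.45, 0.726, 1.45 and 2.17% (odds ratio 1.51, p = 0.42, Fisher exact test). In the highest group the DRE share, 5.07%, was close to the 5.60% of all IDR promoter peaks, whereas the E-box share, 2.17%, was under the 4.44% of IDR promoter peaks.

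**Figure D4:**
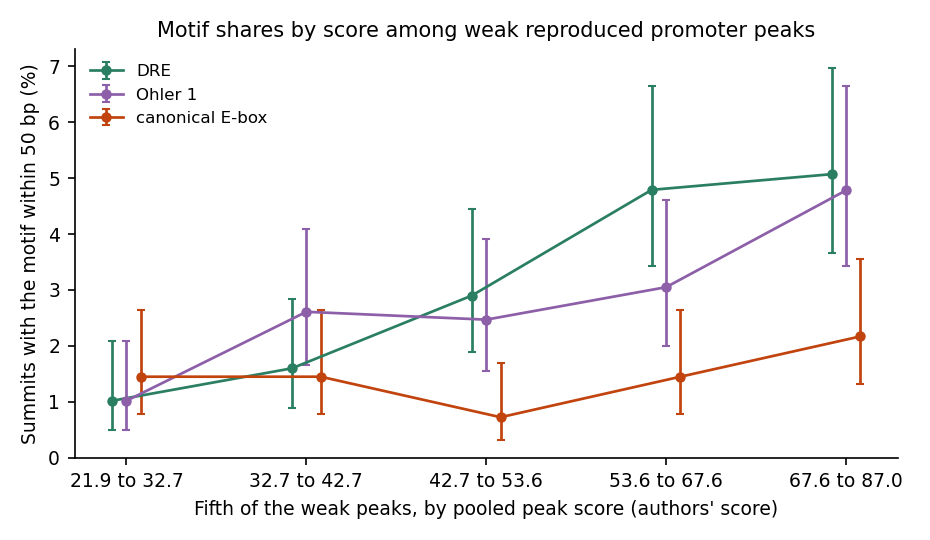
Points give the share of weak summits with the DRE, Ohler 1 or the canonical E-box within 50 bp (vertical, %) in 5 groups of 689 or 690 peaks ordered by the authors' pooled score (horizontal), with 95% Wilson intervals. DRE and Ohler 1 run from 1.02% in the lowest to 5.07% and 4.78% in the highest group.

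The same was counted at the genes' own starts, without reference to the summit. Within 100 bp of 1 start per gene, the DRE was found at 341 of the 2921 genes with a weak peak (11.7%), 481 of the 3599 with an IDR peak (13.4%) and 117 of the 5966 with no pooled promoter peak (1.96%). Ohler 1 was found at 11.0, 11.3 and 1.46% of these genes in the same order. Against genes with no peak the odds ratios of genes with a weak peak were 6.61 for the DRE (adjusted p = 1.65e-77) and 8.37 for Ohler 1 (adjusted p = 9.41e-84) by the exact test. Against genes with an IDR peak neither passed (adjusted p = 0.122 for the DRE and 0.722 for Ohler 1, exact test). Most motifs passed against genes with no peak, all but the canonical E-box and CATGTG. Odds ratios there were 4.32 for Ohler 6, 3.72 for Ohler 7, 1.73 for GAGA, 0.702 for the initiator core and 0.551 for the Zelda site. Their adjusted p ran from 4.59e-32 to 0.0136 by the exact test. The E-box was at 1.61% of genes with a weak peak, 6.17% of genes with an IDR peak and 1.86% of genes with no peak. It was less frequent at genes with a weak peak than at genes with an IDR peak (odds ratio 0.249, adjusted p = 6.55e-21) and did not differ past the threshold from genes with no peak (odds ratio 0.863, adjusted p = 0.442, exact test). Some other E-box spellings did differ there. CATGTG did not pass, at 6.23% of genes with a weak peak and 5.48% of genes with none (odds ratio 1.15, adjusted p = 0.173, exact test). The variant spelled CAGCTG was at 18% of genes with a weak peak and 8.68% of genes with none (odds ratio 2.31, adjusted p = 3.87e-35), and CACGCG was at 7.5% and 4.24% (odds ratio 1.83, adjusted p = 6.74e-10), both by the exact test, and neither passed against genes with an IDR peak (adjusted p = 0.722 each, exact test). The TATA core was at 23.2% of genes with a weak peak and 34.8% of genes with none (odds ratio 0.567, adjusted p = 6.52e-29, exact test). Against genes with an IDR peak, at 23.8%, it did not pass (odds ratio 0.969, adjusted p = 0.722, exact test). Ohler 7 was at 6.37% of genes with a weak and 10.2% with an IDR peak (odds ratio 0.597, adjusted p = 1.28e-07, exact test). The initiator core was at 40.2% and 35.3% (odds ratio 1.24, adjusted p = 0.000155, exact test). The count at starts was added after the data were seen.

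Of the 10266 protein-coding genes without an IDR promoter peak, 2921 (28.5%) had a weak peak, 1379 had unreproduced peaks alone and 5966 had none. An IDR promoter peak was found at the other 3599 of 13865 genes off chromosome 4 (26%). A gene had 1 weak peak in 1873 cases and several in 1048, up to 7. Genes with a weak peak had a median span of 3070 bp, against 2385 bp with unreproduced peaks alone, 1490 bp with none and 2972 bp with an IDR peak. Several distinct starts were annotated for 36.2% of genes with a weak peak and for 13.5% of genes with none, and more starts give more windows in which a peak can fall. CG symbols were borne by 33.3% of genes with a weak peak, 43.1% with unreproduced peaks alone, 57.6% with none and 30.0% with an IDR peak. The genes with a weak peak in the lists below bear other names. How much of the list counts below these differences account for was not tested. The counts are of genes of each of 45 lists that had a weak peak among those without an IDR peak, to be read against 28.5%, and no list was tested.

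Weak peaks stood at part of the ribosome and translation genes without an IDR peak, and the mitochondrial ribosomal protein list gave the most. All 4 nucleolar ribosome biogenesis genes without an IDR peak had a weak one, namely Rrp46 and Rrp4 of the RNA exosome with 66.4 and 58.9, Nop17l with 65.8 and vito with 38.7, and the other 42 of the 46 genes had an IDR peak. Among cytoplasmic ribosomal protein genes 6 of 12 had a weak peak, led by RpL15 with 81.7 and RpS13 with 68.0, and the other 73 of 85 had an IDR peak. Mitochondrial ribosomal protein genes had a weak peak in 20 of 34 cases, from mRpL44 with 80.6 to mRpS30 with 28.5. Among aminoacyl-tRNA synthetase genes the count was 7 of 13, and 5 of these 7 encode mitochondrial enzymes, such as AspRS-m with 78.3. Translation factors gave 6 of 22, at about the background, led by eIF3e with 85.9 and eEF1delta with 83.5.

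Machinery of the nucleus and of protein turnover followed. Nuclear pore and transport genes had a weak peak in 12 of 17 cases, among them the pore membrane protein gene Gp210 with 86.5 and Ran, the GTPase of nuclear transport, with 77.6. The Mediator and TAF list gave 13 of 20, led by MED24 with 84.1 and MED10 with 81.3, the splicing list 6 of 9 and the proteasome list 12 of 19, led by Prosalpha5 with 86.2. Cell cycle and replication genes gave 10 of 17, with CycB3, a mitotic cyclin, at 83.3 and the polymerase clamp PCNA at 61.8. The window of CycB3 held an Ohler 1 match. Cytoskeleton and motor genes gave 15 of 18, one of the highest counts, with Rac1 at 86.8, the actin capping genes cpa at 85.3 and cpb at 78.4, and the kinesin gene Khc at 73.4. Rab GTPase genes gave 10 of 14, led by Rab2 with 77.2. Oxidative phosphorylation genes gave 25 of 59, led by ATPsynB with 83.8 and ND-13B with 81.8. Vacuolar ATPase genes gave 6 of 18 (33.3%), near the background, led by Vha68-2 with 70.3.

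Signalling pathway lists lay above the 28.5% of all genes, a share that also counts genes with CG symbols. All 7 Hippo pathway genes without an IDR peak had a weak one, from ex with 66.9 and sd, the DNA-binding partner of Yorkie, with 63.9 to the kinase gene wts with 26.5. In the Notch list 6 of 8 had one, led by H, the Hairless co-repressor, with 85.6 and the receptor gene N with 76.6, which ranked 8294 in replicate 2 and 4110 in replicate 3. In the Hedgehog list 6 of 8 had one, with the kinase gene fu at 72.9, its partner Su(fu) at 56.7, the receptor gene ptc at 53.3 and the ligand gene hh at 37.9. The BMP and activin list gave 10 of 17, with the inhibitor gene Dad at 78.3, the Smad gene Med at 74.7, the ligand gene gbb at 71.4 and the receptor gene tkv at 66.6. The receptor tyrosine kinase and Ras list gave 14 of 22, with csw at 86.8, the transcription factor gene pnt at 78.9, the FGF gene bnl at 78.4 and the receptor gene Egfr at 68.6. JAK-STAT and immune signalling gave 10 of 17, with Stat92E at 85.4, its inhibitor Socs44A at 84.9 and the kinase gene hop at 60.8. Wnt signalling gave 7 of 12, led by Wnt6 with 83.1, and insulin and TOR signalling 8 of 16, led by raptor with 68.7 and Tsc1 with 68.4.

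Developmental genes differed from list to list. In the Hox and segmentation list 15 of 28 genes had a weak peak, with a median score of 44.9, and these included 8 Hox genes, from Dfd with 67.5, Antp with 57.4 and Ubx with 52.5 to Abd-B with 26.7. Outside the Hox genes, cad, the posterior determinant, had 59.9 and en, which marks posterior compartments, had 54.4. Of the bHLH factors 12 of 34 (35.3%) had one, not far above the background, led by Fer2 with 58.2 and Oli with 46.3, and their median was 38.1. Axon guidance genes gave 8 of 12, with a median of 60.7, led by the receptor phosphatase gene Lar with 75.3. Muscle genes gave 7 of 17, among them Tm2 with 61.6 and Mef2, the myogenic regulator, with 41.2. The epidermal regulator grh stood high with 85.4 as did shg, the E-cadherin gene, with 85.3, which is the same peak as that of cpa, in a trachea and epidermis list that gave 6 of 12.

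The remaining lists lay between these. Apoptosis genes gave 8 of 14, led by egr, the fly TNF ligand, with 80.7 and the caspase inhibitor gene Diap1 with 74.3. Polycomb and trithorax genes gave 7 of 13, led by the chromatin remodeller subunit gene Snr1 with 80.6 and the methyltransferase gene trr with 79.7. These are the same peaks as those of mRpL44 and mRpL16 in the mitochondrial ribosomal list. The start nearest the trr peak was that of mRpL16. Autophagy genes gave 6 of 12, led by Atg13 with 81.3, glycolysis and gluconeogenesis genes 5 of 11, led by Pepck1 with 80.5, and ecdysone response genes 7 of 19, led by Eip74EF with 69.2 and the receptor gene EcR with 67.4. DNA repair genes gave 3 of 9, led by the flap endonuclease gene Fen1 with 81.2, and glial genes also 3 of 9, led by loco with 75.6. Both shares, 33.3%, were near the background.

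Several lists lay well under the background. Neuronal differentiation genes gave 3 of 19, gut genes 2 of 18, haemocyte and fat body genes 3 of 18 and cytochrome P450 genes 9 of 80. Cuticle genes gave 3 of 121, chemosensory genes 10 of 229, antimicrobial peptide genes 2 of 33, gut serine protease genes 1 of 27 and male accessory gland and sperm genes 1 of 64. IDR peaks were at 5 of the 85 cytochrome P450 genes, 2 of 21 neuronal, 1 of 122 cuticle, 1 of 230 chemosensory and 2 of 66 male genes. Gr63a, a subunit of the carbon dioxide receptor, was the highest chemosensory gene with 79.0, but its summit lay 19 bp upstream of Lamtor4, whose start was the nearer one and whose window held an Ohler 1 match. Histone genes gave 0 of 113, and since they are repeated in near-identical copies, to which the sources used here do not say how reads were assigned, that count is uncertain.

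**Figure D5:**
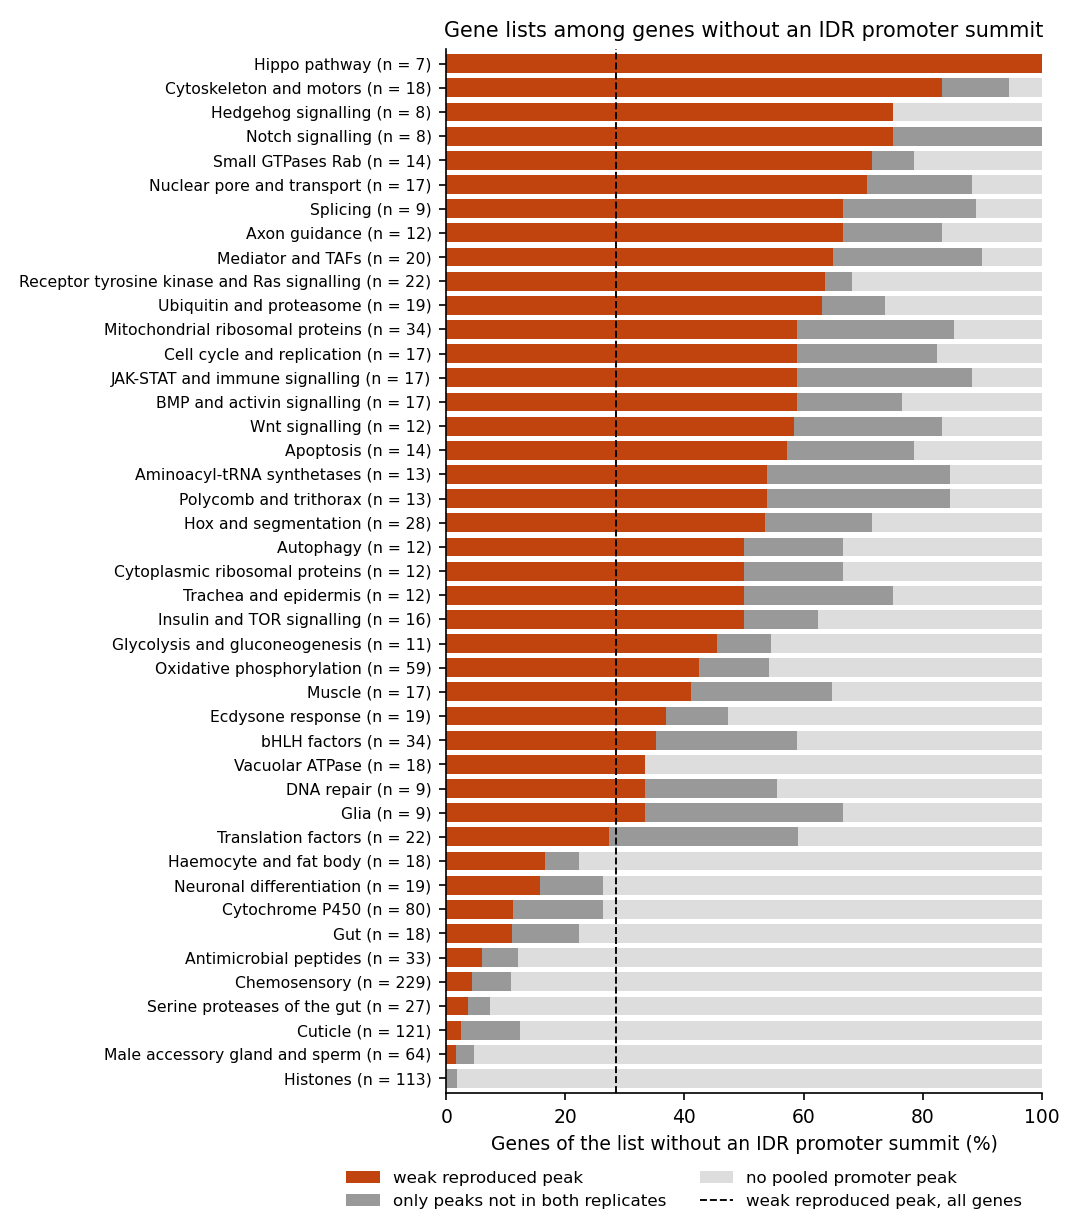
For each gene list with at least 7 genes lacking an IDR promoter peak, bars split those genes (horizontal, %) into genes with a weak peak, with unreproduced peaks alone and with none, and n is the number of genes. The dashed line is the 28.5% of all 10266 genes, and lists run from Hippo, where all 7 genes had a weak peak, to histones with none of 113.

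Within the Max network itself Mondo, the partner of bigmax in sugar sensing, was reached only by sub-threshold peaks, while Max, Mnt and bigmax had IDR promoter peaks. One Mondo peak scored 46.5, with a summit 35 bp downstream of a start, and ranked 27415 in replicate 2 and 5025 in replicate 3. The other scored 42.8, 362 bp upstream of a start, and ranked 12034 and 29813. Neither window held any of the 12 motifs. A further peak at Mondo, with 46.1, had no match in replicate 3. Myc had an unreproduced peak alone, with a score of 38.5 and a rank of 11464 in replicate 2 and no peak in replicate 3, so it is not among the genes described here.

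The nearest IDR summit lay a median of 6102 bp from a weak summit, with 1491 weak peaks (43.3%) having one within 5000 bp and 198 (5.7%) within 1000 bp. The removal of genes with an IDR summit at a start helps to set the last share. At 94 weak peaks the summit was also within 500 bp of a start of a gene that had an IDR summit elsewhere. The starts of at least 2 genes were near 782 weak peaks (22.7%), such as that of Snr1 and mRpL44, and near 1224 IDR promoter peaks (43.1%), a difference that the removal of genes with an IDR summit helps to set and that was not tested.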

How the data were processed

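The authors deposited narrowPeak lists on dm6 of single replicates, of both pooled and of the pooled peaks past the IDR threshold, each made from IP alignments against a control, per the listings deposited with the samples. Neither the aligner nor the peak caller is named in the sources used here. Values deposited by the authors are a peak score, on a scale of its own in each list and used only to describe or rank, and −log10 of the q-value. Depth is unknown. Starts came from Ensembl release 115 and sequence from RefSeq Release 6, where 99.83% of 30593 annotated start codons read ATG. A peak's replicate match was the highest-scoring peak overlapping it by at least 1 bp. Motifs were counted on both strands. Flanks were compared by exact McNemar tests, the larger p kept and p set to 1 where the summit share lay between the flanks, and site groups by two-sided Fisher exact tests, both with Benjamini-Hochberg adjustment and a threshold of 0.05 (Python 3.11.15, SciPy 1.17.1, pandas 2.3.3), tested on simulated data. Intervals are 95% Wilson. Members, motifs and 45 gene lists were chosen with earlier results of these data known, and 61 list names found no gene off chromosome 4. Named peaks are the 8 highest and 3 lowest scores, the 3 lowest IDR peaks, the leading peaks of each list and of 3 motifs, those high in both replicates or furthest apart between them, and the Max network. Other genes of a list are given by score for illustration and were chosen after their values were seen. Alternatives were other windows, overlaps and starts, single replicates, and subsets of peaks.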

Additional observations from a re-analysis of the deposited data

How the results depend on the processing

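The E-box deficit of weak against IDR promoter peaks passed the threshold under all 16 alternatives (odds ratio 0.206 to 0.438), DRE and Ohler 1 passed against the flanks under all 13 (motifs passing there numbered 4 to 9), and upstream position and X under all 12. Weak peaks numbered 1802 with replicate summits within 100 bp and 1933 with the 15000 highest replicate peaks. Motifs passing against IDR promoter peaks numbered 3 above the median score. Motifs passing against unreproduced peaks numbered 0 with a 250 bp window and 3 with 1000 bp, 2 when replicate peaks cover at least 0.5 of the pooled peak, with summits within 100 bp, with 1 peak per promoter or above the median score, 3 with genes with an IDR summit kept or motifs within 100 bp, and 0 to 3 with 1 replicate left out. Among the motifs named in the text, odds ratios that changed side of 1 were, for the E-box against unreproduced peaks, 0.916 at 1000 bp, 0.878 with the 0.5 overlap, 0.982 with 1 start per gene, 0.96 with 1 peak per promoter and, with 1 replicate left out, 0.721 to 1.27, against 1.07 with both. For Ohler 1 against IDR peaks they were 1 with summits within 100 bp and upstream only, 1.08 above the median score and 1.32 under 40% GC; for small RNA starts 1.13 with summits within 100 bp and 1.08 with IDR genes kept; and for GAGA 0.8 under 40% GC. None of these passed. For Ohler 6 against IDR peaks, 1 in all peaks, they were 1.09 at 250 bp and with 1 peak per promoter, 1.02 with the 0.5 overlap, 1.01 with summits within 100 bp, 1.05 with the 15000 highest peaks and 1 start per gene, 0.912 to 1.04 with 1 replicate left out, 1.21 above the median score and 1.32 upstream, none of which passed. Under 40% GC it was 1.8 (adjusted p = 0.0428) and at 40% or more 0.443 (adjusted p = 0.0136, exact test), past the threshold in opposite directions. Other E-box spellings and the Zelda site also changed side in GC or upstream subsets, and none of those values passed. The causes were not tested. The GC and upstream subsets, and leaving out weak peaks within 1000 bp of an IDR summit, were chosen after seeing the data. No paired analysis was possible because there is 1 group. Low motif counts limit the comparisons by score and with unreproduced peaks.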
